A study of Mus musculus with 6 samples.

Results

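The matricellular and niche genes described here are Postn, Tnc, Sparc, Sparcl1, Fstl1, Thbs1, Thbs2, Thbs3, Fn1 and Spp1, chosen by gene symbol. All 10 were found among the 41388 Ensembl genes counted, and all 10 passed the filter of a CPM (count scaled to the effective library size) above 1 in 3 or more samples, which kept 12192 genes. RNA-seq had been performed on 6 samples, of which 3 held tumor-initiating cells (TICs, sorted as CD24+CD90+CD45-) and 3 held non-CD24+CD90+ cells, the CD45- tumor cells outside the double-positive gate. Both were sorted from mammary tumors of 12-week-old female FVB/N-TgN(MMTVPyVT)634Mul/J mice, so every sample carried the polyoma middle T oncogene, which the mammary tumor virus promoter drives mainly in mammary epithelium, and no group was free of it. Each sample pooled 4 cell sorts from individual mice and 120 ng of RNA entered each library. The sorts came from 12 mice in total, without a statement whether that total holds for each group or for both groups together, so TICs and non-CD24+CD90+ cells may share mice. The series text calls the comparison cells CD24-CD90-, whereas the methods also place cells positive for a single marker among them. The question was how TICs, which form colonies and tumors more readily, differ from the remaining tumor cells in these genes.

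Matricellular proteins are secreted into the extracellular matrix, where most of them regulate how cells attach, migrate and sense growth factors rather than bearing load. Periostin and tenascin C are known as components of the niche that supports disseminated breast cancer cells in the lung. Fibronectin is a structural glycoprotein on which many other matrix proteins assemble. In mammary tumors these genes are best known from fibroblasts and perivascular cells, and osteopontin is also made by carcinoma cells and macrophages.

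For the genes that rose in TICs, the DNA just upstream of the start is shown where RefSeq held it (GRCm38.p6) to set the start regions of genes that rose together side by side. An entry was found for 7 of the 10 genes and none for Sparcl1, Thbs1 and Fn1. Each run is the 250 bases before the annotated start, written 5′ to 3′ on the strand of the gene, and capitals mark, on either strand, the core promoter element TATAAA, the promoter box CCAAT, the Sp1-type element GGGCGG, the SMAD element CAGAC and the AP-1 element TGANTCA. The 3 windows are chr3:54360857-54361106 (plus strand) for Postn, chr4:64047016-64047265 (minus strand) for Tnc and chr16:37776805-37777054 (plus strand) for Fstl1.

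Postn: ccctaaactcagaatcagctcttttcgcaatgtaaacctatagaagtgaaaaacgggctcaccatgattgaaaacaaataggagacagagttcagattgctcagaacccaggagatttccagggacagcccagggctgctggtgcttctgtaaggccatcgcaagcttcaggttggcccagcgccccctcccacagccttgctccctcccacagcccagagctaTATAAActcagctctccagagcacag
Tnc: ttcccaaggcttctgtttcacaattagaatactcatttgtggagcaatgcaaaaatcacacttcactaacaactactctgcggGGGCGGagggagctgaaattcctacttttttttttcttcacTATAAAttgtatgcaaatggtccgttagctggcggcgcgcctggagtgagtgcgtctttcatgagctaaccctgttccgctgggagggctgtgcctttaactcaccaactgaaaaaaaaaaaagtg
Fstl1: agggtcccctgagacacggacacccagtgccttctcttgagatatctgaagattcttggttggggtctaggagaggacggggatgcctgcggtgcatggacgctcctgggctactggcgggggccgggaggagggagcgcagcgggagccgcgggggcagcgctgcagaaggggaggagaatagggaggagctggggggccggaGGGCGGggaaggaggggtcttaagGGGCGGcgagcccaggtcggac

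The Postn window held TATAAA beginning 26 bases before the start and no other of these motifs. The Tnc window held TATAAA 126 bases and GGGCGG 167 bases before the start. The Fstl1 window held no TATAAA and had GGGCGG at 46 and 22 bases, with a GC content of 68.0% against a median of 52.4% over all promoters. Of 32851 promoter windows of the same length, 12.4% held TATAAA, 32.7% GGGCGG, 33.8% CCAAT, 42.2% CAGAC and 6.75% TGANTCA. For Fstl1 the RefSeq start lay 182 bases downstream of the GENCODE one. Most of its window, with both GGGCGG matches, therefore lay inside the gene as GENCODE annotates it. A match describes letters in a window, not binding.

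Total counts ranged from 6781239 to 8450038 in non-CD24+CD90+ cells and from 8114933 to 9100552 in TICs, so that 3 counts correspond to 0.33 to 0.442 CPM. TIC replicate 3 stood farthest from the other samples, with a mean root mean square difference of 2.14 in log2 CPM against 1.74 to 1.95 for the other 5. Luminal markers were present in every sample, with a summed level of 6068 to 6459 CPM in non-CD24+CD90+ cells and 4018 to 4736 CPM in TICs. Of the sorting markers, Cd24a (log2 fold change -0.34, adjusted p = 0.98) and Thy1, the CD90 gene (1.25, adjusted p = 0.35), did not pass edgeR's exactTest. Thy1 had 520, 500 and 151 counts in non-CD24+CD90+ cells and 825, 1775 and 533 in TICs, and Ptprc, which encodes CD45, was at 0 except for 33 counts in non-CD24+CD90+ replicate 1.

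Fstl1, Fn1, Tnc and Postn rose in TICs, between 2.22-fold and 3.23-fold, and no gene of the 10 fell. Sparc, Sparcl1, Thbs2 and Thbs3 had similar or smaller positive fold changes that did not pass the threshold. Spp1 was nearly level, and Thbs1 had the only negative fold change. In edgeR's exactTest, with p-values adjusted over all 12192 genes and a threshold of 0.1, 4 of the 10 genes were higher in TICs, where 1.36% of all genes tested were called higher. With the same test 0 of the 10 were lower, where 0.189% of all genes were called lower, and 0 were lower in the quasi-likelihood test or in DESeq2. At an unadjusted p below 0.05, 7 of the 10 genes were higher, as were 4.74% of all genes, and 0 were lower, as were 3.11% of all genes. The median log2 fold change of the 10 genes was 1.16, and that of all genes tested was -0.01. The call differed between tests, with 3 of the 10 called by edgeR's quasi-likelihood test, which called 0.41% of all genes, and 6 by DESeq2, which called 2.51%. In 7 of the 10 genes all TIC values exceeded all values of the non-CD24+CD90+ cells, as in 7.69% of all genes, and in 0 every TIC sample lay below, as in 7.55% of all genes. At this sample size the smallest p an exact permutation test allows for 1 gene is 0.1. In sorted bulk samples, fewer cells of a type and less RNA per cell cannot be told apart.

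**Figure D1:**
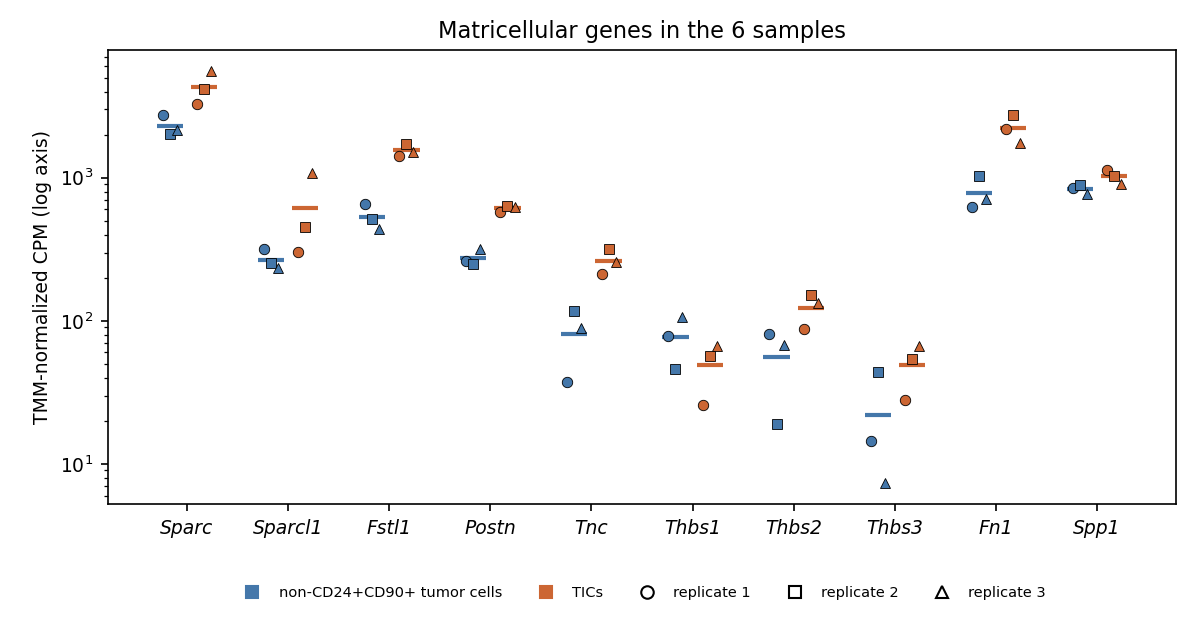
TMM-normalized CPM (y, log axis) of the 10 genes (x) in the 6 samples. Blue symbols are non-CD24+CD90+ cells, orange symbols are TICs, the shape gives the replicate and each bar is the group mean over 3 samples. Postn, Tnc, Fn1 and Fstl1 show a clear gap between the groups, whereas those of Sparcl1, Thbs1 and Thbs3 overlap.

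Fstl1 (ENSMUSG00000022816, GRCm38 chromosome 16, 37776873 to 37836514) encodes follistatin-like 1, a secreted glycoprotein of the SPARC family that modulates BMP signaling. Its level was 656, 512 and 438 CPM in non-CD24+CD90+ cells replicates 1 to 3 and 1425, 1729 and 1525 CPM in TICs. The lowest TIC sample was 2.17 times the highest of the comparison group, the widest gap among the 10 genes. The log2 fold change was 1.54 (SE 0.28, adjusted p = 9.4e-05 from edgeR's exactTest), which placed Fstl1 at rank 9 by p-value among all genes. It stayed called in the 6 fits that each left out a sample, with log2 fold changes from 1.42 to 1.73, and in the quasi-likelihood test (adjusted p = 0.029).

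Sparc (ENSMUSG00000018593, chromosome 11, 55394500 to 55423183) encodes osteonectin, a collagen-binding glycoprotein that acts as a chaperone for fibrillar collagen. It was the most abundant of the 10 genes and ranked 12 among all genes by mean CPM. Its level was 2752, 2018 and 2167 CPM in non-CD24+CD90+ cells and 3252, 4187 and 5573 CPM in TICs, so that the groups did not overlap. The gap was narrow, with the lowest TIC sample at 1.18 times the highest sample of the other group. The log2 fold change of 0.91 (SE 0.30) had an adjusted p of 0.13 in exactTest and did not pass. Without TIC replicate 1, the lowest TIC sample, the adjusted p was 0.022, and DESeq2 gave 0.0014.

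Sparcl1 (ENSMUSG00000029309, chromosome 5, 104079111 to 104113733) encodes hevin, the closest relative of SPARC, known from vessel walls and from the brain. Its level was 318, 252 and 234 CPM in non-CD24+CD90+ cells and 303, 454 and 1073 CPM in TICs. The high TIC mean of 610 ± 408 CPM (SD, n = 3) rested on replicate 3, and replicate 1 lay within the range of the other group. Its log2 fold change was 1.19 (SE 0.40, adjusted p = 0.17 from exactTest). It was 0.52 without TIC replicate 3 and 1.52 without TIC replicate 1, where the adjusted p was 0.0061. The endothelial markers (Pecam1, Cdh5, Kdr and 5 others) took a similar course, with summed levels of 168, 179 and 175 CPM in non-CD24+CD90+ cells and 218, 344 and 726 CPM in TICs. The ratio of Sparcl1 to this sum was between 1.32 and 1.89 in all 6 samples, 1.39, 1.32 and 1.48 in TICs. This pairing was chosen after the values were seen, and the part of endothelial cells in the Sparcl1 levels was not tested.

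Fn1 (ENSMUSG00000026193, chromosome 1, 71585520 to 71653200) encodes fibronectin. Its level was 620, 1023 and 706 CPM in non-CD24+CD90+ cells and 2186, 2752 and 1759 CPM in TICs. The groups were separated by a factor of 1.72 between their nearest samples. TICs exceeded the other group by a log2 fold change of 1.51 (SE 0.30, adjusted p = 0.00066 from exactTest). All 6 fits without a sample called Fn1, with log2 fold changes from 1.34 to 1.75, as did the quasi-likelihood test (adjusted p = 0.053).

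Tnc (ENSMUSG00000028364, chromosome 4, 63959785 to 64047015) encodes tenascin C, a large hexameric glycoprotein that weakens the adhesion of cells to fibronectin. Its level was 37.2, 117 and 89.0 CPM in non-CD24+CD90+ cells and 214, 316 and 257 CPM in TICs. The comparison group was the more scattered, with a 3.14-fold range against 1.48-fold in TICs, because of the 255 counts in its replicate 1. The log2 fold change was 1.69 (SE 0.39, adjusted p = 0.0064 from exactTest), the largest of the 10 genes. Without that replicate it was 1.36 and still called. The quasi-likelihood test did not call Tnc (adjusted p = 0.12).

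Postn (ENSMUSG00000027750, chromosome 3, 54361109 to 54391037) encodes periostin, which binds tenascin C, fibronectin and collagen and signals through integrins. Its level was 261, 250 and 317 CPM in non-CD24+CD90+ cells and 576, 639 and 620 CPM in TICs. The TIC samples differed by a factor of only 1.11, the tightest of the 10 genes. This gave a log2 fold change of 1.15 (SE 0.28, adjusted p = 0.0091 from exactTest). The call was lost without replicate 1 (adjusted p = 0.12) or replicate 2 (adjusted p = 0.19) of non-CD24+CD90+ cells, at log2 fold changes of 1.12 and 1.08.

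**Figure D2:**
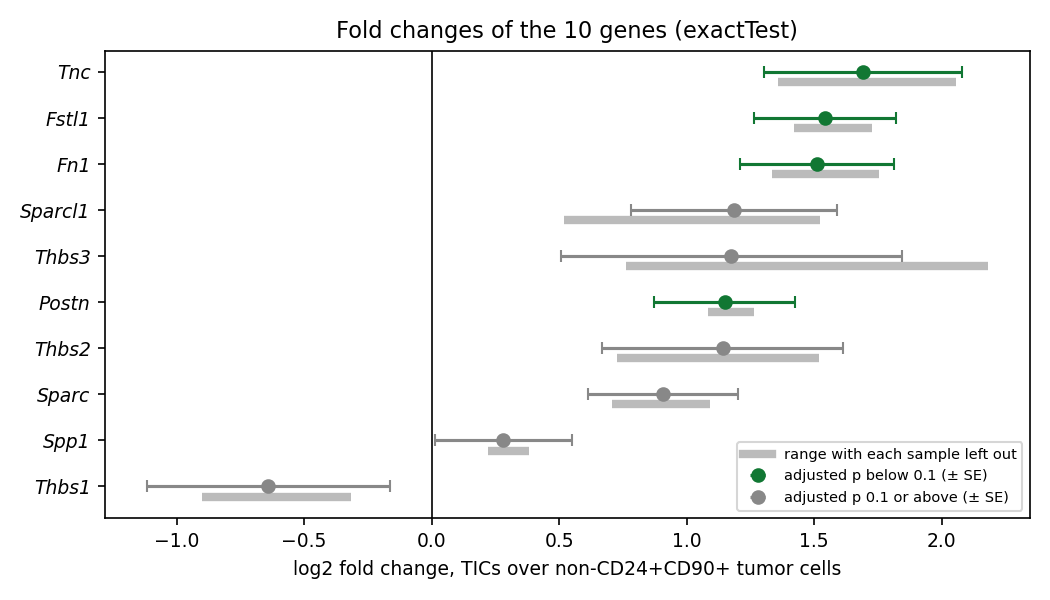
Log2 fold change of TICs over non-CD24+CD90+ cells (x) for the 10 genes (y), with the standard error as error bar. Green marks genes with an adjusted p below 0.1 in exactTest, and the grey band below each point spans the fits with each sample left out. Tnc lies highest at 1.69 and Thbs1 lowest at -0.64, and the bands of Sparcl1 and Thbs3 are the widest.

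The thrombospondins, large multimeric glycoproteins that bind calcium, matrix proteins and cell surface receptors, gave no call. Thbs1 and Thbs2 belong to the trimeric subgroup that inhibits angiogenesis, and Thbs3 to the pentameric one. Thbs1 (ENSMUSG00000040152, chromosome 2, 118111876 to 118127133) had 78.7, 46.3 and 106 CPM in non-CD24+CD90+ cells and 25.6, 56.5 and 66.1 CPM in TICs. The groups overlapped, and the log2 fold change of -0.64 (SE 0.48) had an adjusted p of 0.94 in exactTest. The sign was negative in the 8 other settings and the 6 fits that left out a sample, from -0.90 to -0.32 in the latter.

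Thbs2 (ENSMUSG00000023885, chromosome 17, 14665500 to 14694235) had 81.4, 18.8 and 67.9 CPM in non-CD24+CD90+ cells and 87.8, 150 and 133 CPM in TICs. The groups did not overlap, although TIC replicate 1 was only 1.08 times the highest sample of the other group, and the log2 fold change was 1.14 (SE 0.47, adjusted p = 0.40). It ranged from 0.73, without non-CD24+CD90+ replicate 2, to 1.52, without replicate 1 of that group. Thbs3 (ENSMUSG00000028047, chromosome 3, 89215180 to 89226837) was the least abundant of the 10 genes. It had 14.4, 43.6 and 7.29 CPM in non-CD24+CD90+ cells and 27.8, 53.9 and 66.1 CPM in TICs. These overlapped, with a 5.97-fold range in the comparison group alone, and the log2 fold change was 1.17 (SE 0.67, adjusted p = 0.79). It was 2.18 without non-CD24+CD90+ replicate 2 and 0.76 without replicate 3 of that group, and neither passed. Thbs3 shares 318 exon bases with Mtx1 on the opposite strand, and the strand setting of the counting is not given in the sources used here. Within each sample, the ratio of Thbs2 to Thbs1 was 1.04, 0.407 and 0.640 in non-CD24+CD90+ cells and 3.43, 2.66 and 2.01 in TICs. This ratio did not overlap between groups (exact permutation test, two-sided, p = 0.1, the smallest possible). The pair was chosen after the values were seen. Any ratio without overlap gives this p, so the test adds no evidence.

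Spp1 (ENSMUSG00000029304, chromosome 5, 104435118 to 104441050) encodes osteopontin, a phosphorylated glycoprotein that binds integrins and CD44. Its level was 854, 889 and 776 CPM in non-CD24+CD90+ cells and 1127, 1030 and 905 CPM in TICs. Every TIC sample was above the other group, but the nearest samples differed by a factor of only 1.02. The log2 fold change was 0.28 (SE 0.27, adjusted p = 1.0 from exactTest), with an approximate 95% interval from -0.24 to 0.81. The ratio of Fn1 to Spp1, a pair chosen after the values were seen, was 0.727, 1.15 and 0.910 in non-CD24+CD90+ cells and 1.94, 2.67 and 1.94 in TICs (exact permutation test, two-sided, p = 0.1, the smallest possible). Fn1 alone already separated the groups and Spp1 was nearly level, so this test adds no evidence. Spp1 was the steadiest of the 10 genes among non-CD24+CD90+ cells, with a coefficient of variation of 6.91%, against 88.3% for Thbs3.

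Together the 10 genes took 0.556%, 0.539% and 0.506% of all counts in non-CD24+CD90+ cells and 0.922%, 1.13% and 1.12% in TICs. Between 35.3% and 48.5% of these counts were Sparc in every sample. To compare levels between genes, CPM was divided by the length of the merged exons in kilobases. This length joins the exons of all annotated transcripts, from 1648 bases for Spp1 to 11685 for Fn1. The order of the genes depends on it and could differ with the length of 1 transcript. On this scale Sparc led in TICs at 1145 ± 308 CPM per kilobase (SD, n = 3), followed by Spp1 at 619 ± 67 and Fstl1 at 317 ± 32. Sparcl1 at 208 ± 139 CPM per kilobase and Fn1 at 191 ± 43 overlapped, and Sparcl1 also overlapped Fstl1. Postn at 70.3 ± 3.7 and Tnc at 33.7 ± 6.6 CPM per kilobase were each clear of their neighbours. Thbs2 at 17.7 ± 4.6, Thbs3 at 10.2 ± 4.1 and Thbs1 at 8.14 ± 3.49 CPM per kilobase overlapped from neighbour to neighbour.

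In non-CD24+CD90+ cells Sparc at 610 ± 102 and Spp1 at 509 ± 35 CPM per kilobase overlapped. Fstl1 followed at 109 ± 23, Sparcl1 at 91.2 ± 15.1 and Fn1 at 67.0 ± 18.1 CPM per kilobase, each overlapping the next. Postn at 31.7 ± 4.1 stood apart. Thbs1 at 12.7 ± 4.9 CPM per kilobase, Tnc at 10.4 ± 5.2, Thbs2 at 8.01 ± 4.70 and Thbs3 at 4.51 ± 3.98 overlapped. Thbs1 thus stood above Tnc by mean in this group and below it in TICs.

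**Figure D3:**
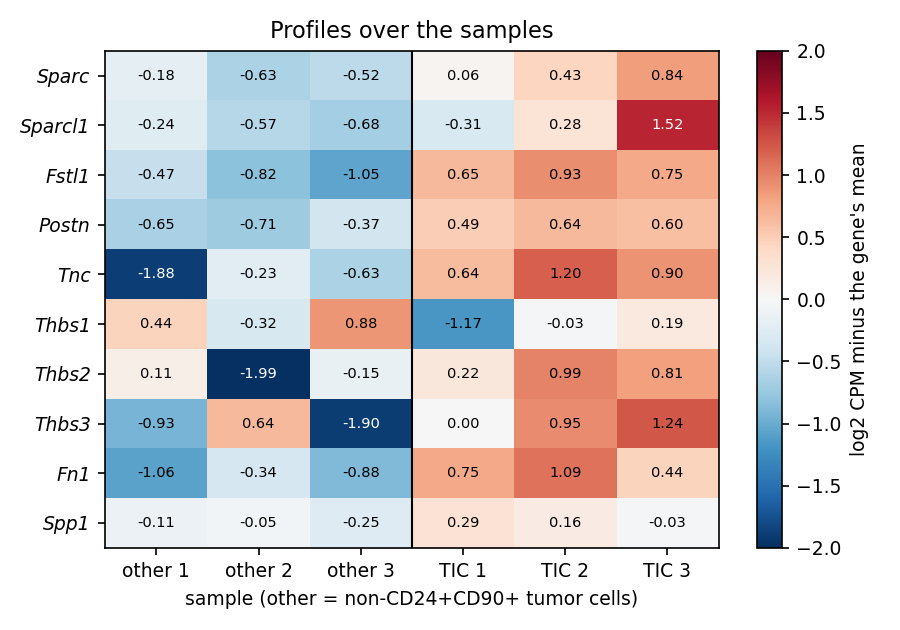
Log2 CPM of the 10 genes (y) in each sample (x) after subtraction of the gene's mean over the 6 samples, in log2 units, with red above and blue below the mean. Postn and Fstl1 are blue in the 3 samples of non-CD24+CD90+ cells and red in the 3 TIC samples, and Sparcl1 peaks in TIC replicate 3 at 1.52.

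The likeness of these profiles was measured as the root mean square difference of mean-centred log2 CPM over the 6 samples, as a description. Among the 10 genes, Postn and Sparc were the closest pair at 0.30, followed by Postn and Fstl1 and by Sparc and Sparcl1, both at 0.33. Thbs1 and Thbs3 were the farthest pair at 1.52. Among 3796 genes with a mean of at least 50 CPM, the profile of Postn was nearest to those of Anxa5 at 0.12, which encodes a phospholipid-binding annexin, and Tgfbr2 at 0.13, a TGF-beta receptor. Fn1 was nearest to Col6a3 at 0.16 and Ogn at 0.17, a collagen VI chain and a small leucine-rich proteoglycan. Fstl1 was nearest to Col12a1 at 0.17 and Igf1 at 0.20, Tnc to Dab2 at 0.27 and Col14a1 at 0.29, and Sparc to Gas6 at 0.10 and Col6a2 at 0.12. Sparcl1 was nearest to Mmp3 and Cald1, both at 0.15. Spp1 was nearest to Lmna at 0.07 and Arih1 at 0.08, genes that, like Spp1, did not pass the test. The nearest profiles were Svil and Raph1 for Thbs1 (0.22 and 0.23), Cygb and Usp1 for Thbs2 (0.33 and 0.35) and Ccn4 and Pkn2 for Thbs3 (0.42 and 0.46), so that Thbs2 and Thbs3 had the most distant neighbours of the 10 genes.

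Of 29 relatives of the 10 genes, 20 passed the filter. In exactTest 3 were higher in TICs, as were 1.36% of all genes, and 0 lower, as were 0.189%. At an unadjusted p below 0.05, 8 were higher, as were 4.74% of all genes, and 1 lower, as were 3.11%. The quasi-likelihood test called 1 higher and DESeq2 5, and both called 0 lower. Over all genes these tests called 0.41% and 2.51% in either direction. The median log2 fold change of the relatives tested was 0.35. Spon1, which encodes F-spondin, had 93.8, 78.3 and 113 CPM in non-CD24+CD90+ cells and 223, 240 and 386 CPM in TICs (log2 fold change 1.57, SE 0.33, adjusted p = 0.0012). Tnxb, the gene of tenascin X, rose from 80.0 ± 29.0 to 197 ± 59 CPM (SD, n = 3, adjusted p = 0.055 from edgeR's exactTest), and Smoc2, a SPARC relative, from 61.3 ± 5.9 to 147 ± 59 CPM (adjusted p = 0.065 from edgeR's exactTest). In Spon1, Tnxb and Smoc2 the groups did not overlap, and only Spon1 was called by the quasi-likelihood test. The relative that was lower at an unadjusted p below 0.05 was Smoc1, also a SPARC relative. It had 276 ± 51 CPM in non-CD24+CD90+ cells and 153 ± 38 CPM in TICs (SD, n = 3, adjusted p = 0.25 from edgeR's exactTest). Every TIC sample of Smoc1 lay below the other group. The most abundant relatives were Mfge8, which encodes lactadherin, and Ccn1, a matricellular gene of the CCN family. Mfge8 had 2168 ± 288 CPM in non-CD24+CD90+ cells and 1693 ± 227 CPM in TICs, and Ccn1 had 456 ± 158 and 591 ± 58 CPM (SD, n = 3), both with overlapping groups. Tnr, Ibsp, Dspp and Mepe were among 5 relatives with 0 counts in all 6 samples.

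Among 18 receptors that bind these proteins, 17 passed the filter and 2 were higher in TICs, Cd36 and Lrp1, against 1.36% of all genes. Cd36, a scavenger receptor that binds thrombospondins, had 22.8, 34.3 and 19.2 CPM in non-CD24+CD90+ cells and 63.1, 170 and 298 CPM in TICs (log2 fold change 2.80, SE 0.48, adjusted p = 7.4e-05). Lrp1, an endocytic receptor that takes up thrombospondins, rose from 197 ± 59 to 459 ± 86 CPM (SD, n = 3, adjusted p = 0.021 from edgeR's exactTest), a call that the quasi-likelihood test did not make (adjusted p = 0.12). The number of receptors called lower was 0 in exactTest, where 0.189% of all genes were, and 0 in the quasi-likelihood test and DESeq2. At an unadjusted p below 0.05, 3 receptors were higher, as were 4.74% of all genes, and 1 was lower, as were 3.11%. The lower one was Cd44, an osteopontin and hyaluronan receptor. It had 357, 370 and 332 CPM in non-CD24+CD90+ cells and 251, 258 and 193 CPM in TICs (log2 fold change -0.59, adjusted p = 0.56 from edgeR's exactTest). Of 9 integrin subunits tested, 0 were called in either direction in exactTest, the quasi-likelihood test or DESeq2, and 0 had an unadjusted p below 0.05. Itgb1, the subunit shared by most fibronectin receptors, had 285, 226 and 211 CPM in non-CD24+CD90+ cells and 406, 185 and 187 CPM in TICs. Only TIC replicate 1 lay above the comparison group, and the other 2 TIC samples lay below it.

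The summed levels of the fibroblast, pericyte, endothelial, Schwann and leukocyte marker lists were higher in every TIC sample. The calls below are from exactTest, which called 1.36% of all genes higher. At an unadjusted p below 0.05, 5 of 6 fibroblast, 5 of 8 pericyte, 2 of 3 Schwann and 1 of 6 leukocyte genes were higher. Of all genes, 4.74% were. The fibroblast list (Dcn, Dpt, Lum and 4 others) summed to 721 to 773 CPM in non-CD24+CD90+ cells and to 1230 to 2412 CPM in TICs, with 2 of 6 tested genes called higher. Dcn was its most abundant gene, and Pdpn had 2 counts in 1 sample and 0 in the other 5. The pericyte or smooth muscle list summed to 453 to 527 CPM against 891 to 1504 CPM, with 1 of 8 called higher. The endothelial list summed to 168 to 179 CPM against 218 to 726 CPM, with 0 of 8 called by any of the 3 tests and 5 of 8 higher at an unadjusted p below 0.05, against 4.74% of all genes. The Schwann list summed to 108 to 142 CPM against 214 to 227 CPM, with 2 of 3 called higher. The luminal list was lower in every TIC sample, with 0 of 10 called in exactTest and in the quasi-likelihood test, 2 lower in DESeq2 and 2 lower at an unadjusted p below 0.05, against 3.11% of all genes. The basal or myoepithelial list overlapped, at 594 to 1253 CPM against 625 to 739 CPM. At 107 to 116 CPM against 144 to 235 CPM, the leukocyte or macrophage list was low in both groups, though higher in TICs. In exactTest 1 of 6 tested genes was called higher, Lyz2, from 8.57 ± 3.86 to 55.1 ± 24.4 CPM (SD, n = 3, adjusted p = 0.012). C1qa was also higher in every TIC sample, and the other tested genes of the list overlapped. Lyz2 alone held 62.0, 75.3 and 28.0 CPM of the leukocyte sums in TIC replicates 1 to 3. The median log2 fold change of the tested leukocyte genes was -0.16, so the higher sum was not shared by most of the list. Ptprc and Adgre1 were at 0 in at least 5 of the 6 samples.

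By mean, the fibroblast sum itself was 2.63 times as high in TICs, and the 4 genes that rose did so between 2.22-fold and 3.23-fold. Division by this sum therefore lowers the TIC values of any gene relative to the other group. Divided by the fibroblast sum of the same sample, these 4 genes no longer separated the groups. The mean ratio in TICs over that in non-CD24+CD90+ cells was 0.908 for Postn, 1.19 for Fn1, 1.19 for Fstl1 and 1.29 for Tnc, with overlapping samples in each. For Spp1 this quotient was 0.52 and for Thbs1 0.235, and in both every TIC sample lay below every sample of the other group. Before division, Spp1 was slightly higher in every TIC sample and the Thbs1 groups overlapped, so this separation arose with the divisor. The pericyte or smooth muscle sum was likewise 2.36 times as high in TICs by mean. Divided by it, Sparc stood at 3.65, 3.63 and 3.71 in TICs. In non-CD24+CD90+ cells it stood at 6.07, 3.83 and 4.16, so that every TIC sample was lower, although undivided Sparc was higher in every TIC sample. These ratios were computed after the values were seen, Dcn holds most of the fibroblast sum, and the part of such cells in the fold changes was not tested.

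**Figure D4:**
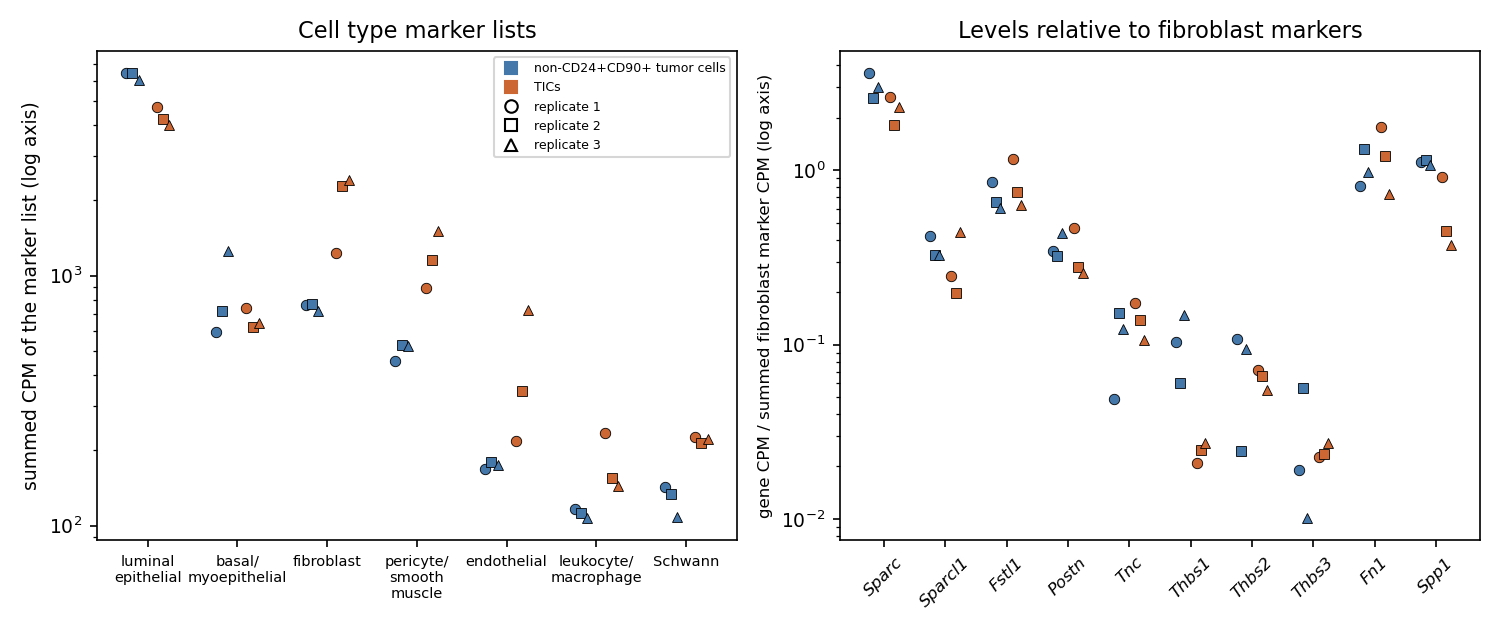
Left, summed CPM (y, log axis) of 7 cell type marker lists (x), and right, CPM of each of the 10 genes divided by the summed CPM of the fibroblast markers in the same sample (y, log axis). Blue symbols are non-CD24+CD90+ cells and orange symbols TICs, with the shape giving the replicate. The fibroblast, pericyte, endothelial, Schwann and leukocyte sums lie higher in every TIC sample. After division by the fibroblast sum, which is itself higher in TICs, Thbs1 and Spp1 lie lower in every TIC sample.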

How the data were processed

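The 6 RNA-seq samples were grouped by their labels into TICs (3) and non-CD24+CD90+ cells (3). Per the study's methods and the submitters' processing notes, reads were trimmed with Trimmomatic (version 0.32), aligned to GRCm38 with STAR (version 2.4.0), stripped of reads without a unique position with SAMtools (version 1.1) and counted per gene with HTSeq. The authors deposited raw counts for 41388 Ensembl genes, without normalization. The annotation release and strand setting are not given in the sources used here.

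Symbols came from a reference list of gene names, or from GENCODE M21 where that list held none (40254 genes matched). Positions and exon lengths came from GENCODE M21 and promoters from RefSeq. The filter required a CPM above 1 in 3 or more samples, TMM factors and tagwise dispersions (common dispersion 0.678) were estimated in edgeR 4.0.16 (R 4.3.3), and exactTest was applied as in the paper's methods, with Benjamini-Hochberg adjustment over all 12192 genes. Standard errors came from the negative binomial fit, and log2 CPM used a prior count of 2. Exact permutation tests used scipy 1.17.1. The scripts were tested on simulated data. Alternatives were the quasi-likelihood test, DESeq2 1.42.0, other scalings, filters, dispersions and thresholds, and each sample left out. Each sample is described as a pool of individual mice, so p-values measure the spread between pools.

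The 10 genes and all lists were chosen with earlier results of these data known, and 4 of the 10 (Postn, Tnc, Fn1, Fstl1) are in the study's own list from these samples, so that their direction is no independent evidence. Named were the 10 genes, their called relatives and receptors, the 2 most abundant relatives, the 2 genes nearest in profile, sorting markers and leading cell type markers. Mtx1, Pdpn, Tnr, Ibsp, Dspp, Mepe, Smoc1, Itgb1, Cd44, Adgre1, Lyz2 and C1qa were named after their values were seen.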

Additional observations from a re-analysis of the deposited data

How the results depend on the processing

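The sign of all 10 fold changes was kept in the 8 other settings and the 6 fits that left out a sample. The number of genes called among all genes was 50 with the quasi-likelihood test, 306 with DESeq2, 112 without the filter and 116 at an adjusted p below 0.05, against 189. It was 72 to 323 with each sample left out, past 1.5 times from 189 in each case except without TIC replicate 3. Between 3 and 6 of the 10 genes were called. Sparc passed with DESeq2 (log2 fold change 0.94), with at least 10 counts in every sample (0.95) and without TIC replicate 1 (range with each sample left out 0.71 to 1.09). Sparcl1 passed with DESeq2 (1.23), with at least 10 counts in every sample (1.23), with trended dispersions (1.19) and without TIC replicate 1 (range 0.52 to 1.52). Tnc was lost in the quasi-likelihood test (1.69). Postn was lost without replicate 1 or replicate 2 of non-CD24+CD90+ cells (range 1.08 to 1.26). Of 47 relatives and receptors, 5 were called, 2 with the quasi-likelihood test, 3 without the filter, 3 at an adjusted p below 0.05, and 2 to 8 with each sample left out (2 and 3 without non-CD24+CD90+ replicates 2 and 3, 8 without TIC replicate 1). These alternatives for relatives and receptors were added after the data were seen. The causes were not tested. No paired analysis was possible because the labels number the samples in 1 series without pairing them, and the replicate numbers used here follow accession order.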
